A study of Mus musculus with 2 samples.

Results

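The genes of oxidative phosphorylation were taken from the gene table by symbol: those starting with Nduf, Uqcr, Atp5 or mt-, those matching Cox4 to Cox8, and Sdha, Sdhb, Sdhc and Sdhd. Symbols with -ps were left out. This gave 106 of the 31053 gene IDs in the files, under 105 symbols, of which 93 IDs are nuclear and 13 are encoded by mitochondrial DNA (mt-). Of the nuclear IDs, 84 are subunits: 36 of complex I, 4 of complex II, 8 of complex III, 20 of complex IV and 16 of complex V. The other nuclear IDs are 8 Ndufaf genes, which help to assemble complex I, and Atp5s, which is not a subunit of the core ATP synthase. The mt- genes comprise 7 of complex I, 1 of complex III, 3 of complex IV and 2 of complex V. At least 1 UMI was counted for 103 of the IDs and at least 100 UMIs for 100 of them (a UMI is the tag that marks 1 captured RNA molecule). Ndufa4 was counted with complex IV, where its protein is now placed.

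The series compares bone marrow of wild-type mice with that of mice carrying a GATA-1 knock-in allele, in cells sorted as Lin- Kit+, the fraction that holds blood stem and progenitor cells. Droplet single-cell RNA sequencing read 3' ends of transcripts from 1 wild-type and 1 knock-in library. GATA-1 is the transcription factor that red cell and megakaryocyte precursors depend on, and the stated aim was to compare their cell populations and gene regulation. The series' title calls the allele a 2RA mutation, which the labels do not explain, and they give no strain, age, sex or number of animals. With 1 library per genotype there is no replicate check and no test between genotypes: every interval below is a 95% interval for counting error in that library or pair of libraries alone.

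Complexes I to IV form the respiratory chain of the inner mitochondrial membrane, which passes electrons from NADH and succinate to oxygen, and complex V is the ATP synthase driven by the proton gradient that the chain builds. Most subunits are encoded in the nucleus and imported. At least 1 subunit of every complex except complex II is made inside the mitochondrion from its own DNA, so that both genomes must supply each of those complexes. Blood stem cells are known for relying little on respiration, and erythroid precursors for dense mitochondria, where the first and last steps of heme synthesis take place.

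Promoters are shown for 6 nuclear members on which the results turn: Cox6b2 and Cox6a1, which differed most between cell classes, Atp5g1 and Sdhb, which were high in erythroid-like cells, and Atp5k and Ndufa3, which differed most between the libraries. Each line holds the 250 bases before the transcription start in RefSeq (GRCm38.p6), 5′ to 3′ on the gene's strand. The positions are chr7:4753095-4753344 on the minus strand for Cox6b2, chr5:115348959-115349208 (minus) for Cox6a1, chr11:96075632-96075881 (minus) for Atp5g1, chr4:140961021-140961270 (plus) for Sdhb, chr5:108434400-108434649 (minus) for Atp5k and chr7:3617123-3617372 (plus) for Ndufa3. Capitals mark exact matches, on either strand, to the letters searched for: GCGC, any base and TGCGC for NRF1 and CCGGAAG for ETS factors, which are known regulators of respiratory genes, AAGATGGCG for YY1, AGATAA for GATA factors, and CCAAT.
Cox6b2: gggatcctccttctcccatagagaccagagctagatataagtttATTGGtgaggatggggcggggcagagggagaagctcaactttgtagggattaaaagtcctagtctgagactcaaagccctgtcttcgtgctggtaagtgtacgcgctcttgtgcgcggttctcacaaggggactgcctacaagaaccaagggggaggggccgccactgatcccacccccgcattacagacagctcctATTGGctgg
Cox6a1: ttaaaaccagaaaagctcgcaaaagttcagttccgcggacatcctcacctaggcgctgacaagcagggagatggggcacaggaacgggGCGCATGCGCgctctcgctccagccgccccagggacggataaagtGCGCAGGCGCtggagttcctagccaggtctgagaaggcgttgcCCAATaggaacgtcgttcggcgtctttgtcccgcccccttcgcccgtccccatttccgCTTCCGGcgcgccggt
Atp5g1: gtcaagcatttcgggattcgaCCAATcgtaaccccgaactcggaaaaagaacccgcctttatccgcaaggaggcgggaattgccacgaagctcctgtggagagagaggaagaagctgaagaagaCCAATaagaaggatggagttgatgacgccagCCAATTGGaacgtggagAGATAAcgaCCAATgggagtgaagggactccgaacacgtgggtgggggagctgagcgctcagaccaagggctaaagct
Sdhb: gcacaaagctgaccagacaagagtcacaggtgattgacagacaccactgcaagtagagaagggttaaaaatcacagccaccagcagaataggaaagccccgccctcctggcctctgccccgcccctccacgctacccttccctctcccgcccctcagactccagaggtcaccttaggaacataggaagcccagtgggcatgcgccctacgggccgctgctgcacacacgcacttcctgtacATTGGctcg
Atp5k: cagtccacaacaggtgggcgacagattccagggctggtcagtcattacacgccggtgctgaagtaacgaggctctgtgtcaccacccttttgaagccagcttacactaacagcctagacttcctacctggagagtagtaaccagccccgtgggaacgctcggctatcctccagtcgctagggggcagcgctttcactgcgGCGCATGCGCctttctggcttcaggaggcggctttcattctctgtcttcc
Ndufa3: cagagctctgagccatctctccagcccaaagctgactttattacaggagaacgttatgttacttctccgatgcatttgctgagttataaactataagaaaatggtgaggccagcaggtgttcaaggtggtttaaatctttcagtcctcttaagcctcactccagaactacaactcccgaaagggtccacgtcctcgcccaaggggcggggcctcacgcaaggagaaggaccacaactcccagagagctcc

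The promoter of Cox6a1 held NRF1 letters 162 and 117 bases before the start (the first site matches on both strands), a CCAAT box at 74 and ETS letters at 16. Atp5k held NRF1 letters at 50 bases before the start. Atp5g1 held 5 CCAAT matches, of which the pair at 95 and 92 overlap, and the GATA letters at 78. Cox6b2 held CCAAT letters at 206 and 9, Sdhb at 9, and the Ndufa3 stretch held none of the 5 patterns. RefSeq windows of 300 bases, from 250 before to 50 after the start, were found for 74 of the 92 nuclear symbols. NRF1 letters stood in 19 of the 74 (25.7%), against 5.19% of all 27025 genes with a window and 7.17% of the 17491 protein-coding ones. ETS letters stood in 18 (24.3%, against 9.93% and 12.9%), YY1 letters in 8 (10.8%, against 1.64% and 2.14%), GATA letters in 6 (8.11%, against 12.7% and 11.2%) and CCAAT in 33 (44.6%, against 41.1% and 42.3%). By complex, NRF1 letters were found in 6 of 13 windows of complex V, 7 of 32 of complex I, 2 of 3 of complex II, 1 of 5 of complex III and 1 of 14 of complex IV, the last being Cox6a1. A match of letters is a description of the sequence and not a bound site.

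After filtering, 5490 wild-type and 5492 knock-in cells were kept, with 64283716 and 43597919 UMIs and medians of 9623.5 and 5279 UMIs per cell. The libraries shared 10 cell barcodes, 5 of them among kept cells. Clusters were named by resemblance to marker lists, and 7 classes had at least 100 cells in each library. The erythroid-like class (2354 wild-type and 1835 knock-in cells) showed 16 of its 18 markers at 5 CPM or more in both libraries (CPM: UMIs of a gene per 1000000 UMIs of the class), with a summed level of 8549 and 8852 CPM, against 673 and 683 in stem and multipotent-like cells. Different clusters hold most of this class in each library: clusters 2, 4 and 13 in the wild type (942, 870 and 300 cells) and clusters 3 and 8 in the knock-in (951 and 504 cells), with clusters 10, 16 and 19 shared. Cluster 4 was led by Apoe and Egr1, an immediate early gene, and the small cluster 19 by interferon-response genes. Cluster 1, with 28 wild-type and 1346 knock-in cells, scored highest on erythroid markers. It had the stem marker Sox4 among its leading genes and was left unnamed. The score is the median over a marker list of the level relative to the highest cluster. The erythroid score of cluster 1 was 0.25, near those of clusters 4 (0.282) and 10 (0.269), which were kept in the class. Whether a cluster of mostly 1 library is a cell state or that library cannot be told apart here.

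The nuclear subunits were most abundant in the erythroid-like, myeloid granule-like and monocyte progenitor-like classes and least abundant in lymphoid-primed-like, basophil and mast-like and stem and multipotent-like cells, in both libraries. Their share of all UMIs of a class is used as the level. In the wild type it was 3.53% in myeloid granule-like, 3.46% in erythroid-like and 3.40% in monocyte progenitor-like cells, then 2.66% in megakaryocyte-like, 2.53% in basophil and mast-like, 2.49% in stem and multipotent-like and 2.31% in lymphoid-primed-like cells. In the knock-in library the order began with erythroid-like cells at 3.38%, followed by 3.15% in myeloid granule-like, 3.09% in monocyte progenitor-like and 2.57% in megakaryocyte-like cells. Stem and multipotent-like cells (2.31%) and basophil and mast-like cells (2.30%) were next to each other, and lymphoid-primed-like cells were again lowest at 2.17%.

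The mt- genes ran in another order. Their share was highest in stem and multipotent-like cells (4.20% in the wild type and 4.22% in the knock-in) and lymphoid-primed-like cells (4.15% and 4.12%), and lowest in erythroid-like cells (3.47% and 3.46%). Myeloid granule-like (3.90% and 3.596%), monocyte progenitor-like (3.88% and 3.76%), megakaryocyte-like (3.74% and 3.66%) and basophil and mast-like cells (3.69% and 3.57%) lay between. The number of nuclear UMIs per mt- UMI was thus 0.998 and 0.977 in erythroid-like cells, 0.904 and 0.876 in myeloid granule-like cells and 0.593 and 0.546 in stem and multipotent-like cells. UMIs mark 3' ends, 1 per molecule, and are not scaled by transcript length.

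**Figure D1:**
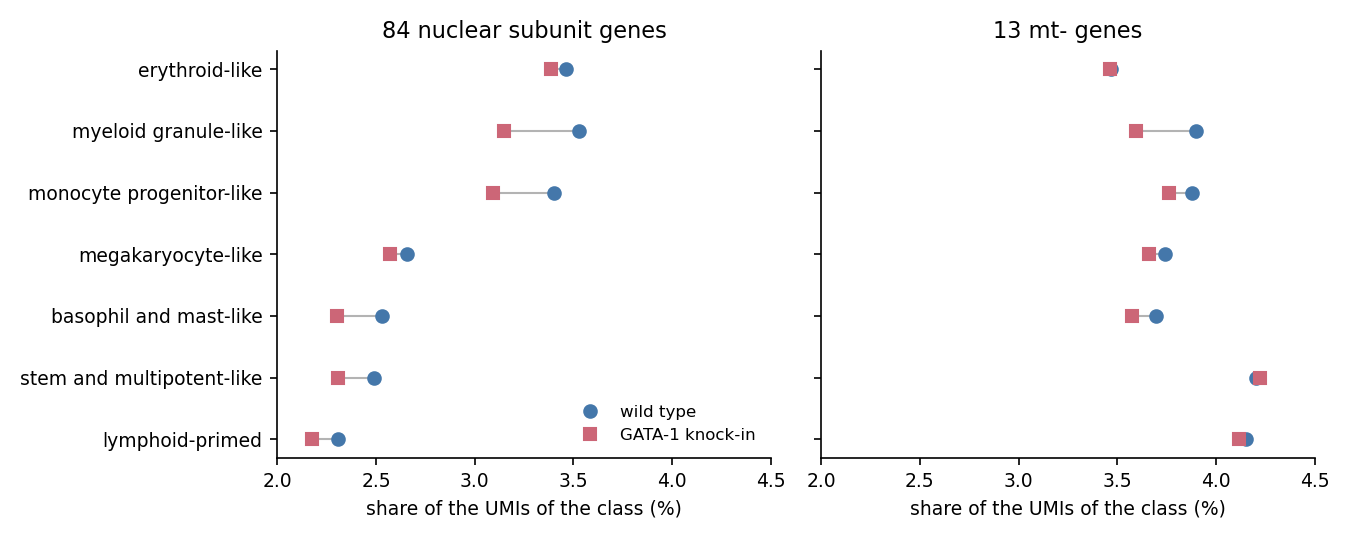
Share of the UMIs of each class that came from nuclear subunits (left) and mt- genes (right), in percent, for the 7 classes. Each point is the sum over the cells of 1 library (circles wild type, squares knock-in). Nuclear shares run from 2.17% to 3.53% and mt- shares from 3.46% to 4.22%, with erythroid-like cells near the top on the left and lowest on the right.

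Single cells spread widely within a class. The median nuclear share per cell was 3.31% in wild-type erythroid-like cells, with quartiles of 2.40% and 3.76%, and 3.35% in the knock-in, with quartiles of 2.78% and 3.67%. In stem and multipotent-like cells the medians were 2.33% (quartiles 2.04% and 2.66%) and 2.18% (1.90% and 2.47%). The upper quartile of stem and multipotent-like cells lay below the median of erythroid-like cells in both libraries. Median depth also differed between these classes, at 14191 and 14075 UMIs per cell in erythroid-like and 5831 and 3940 in stem and multipotent-like cells.

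Within the erythroid-like class the nuclear share differed more between clusters than between libraries. In the wild type it was 2.44% in cluster 10, 2.63% in cluster 4, 3.35% in cluster 13, 3.75% in cluster 2 and 4.37% in cluster 16. In the knock-in it was 2.79% in cluster 10, 2.93% in cluster 8, 3.59% in cluster 3 and 4.15% in cluster 16. The unnamed cluster 1 was at 1.90% in the knock-in. The mt- share of the same clusters stayed between 3.01% and 3.56%. Rhd, an erythroid blood group gene, was at 4.83, 43.4, 113, 253 and 231 CPM in wild-type clusters 10, 4, 13, 2 and 16, and at 5.11, 42.4, 67.3, 176 and 182 CPM in knock-in clusters 1, 10, 8, 3 and 16. Its order was that of the nuclear share in the knock-in and, except that clusters 2 and 16 changed places, in the wild type. Rhd is 1 of the 18 erythroid markers and was chosen for this after its values were seen. The orders of the other markers are not given, so the match holds for Rhd alone. Among these erythroid-like clusters cluster 16 had the highest share at median depths of 4466 and 5723 UMIs, and cluster 2 was deepest at 22970.

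Each library had 15 clusters with at least 50 of its own cells, but not the same ones. Clusters 2, 4, 13 and 18 counted in the wild type only, and clusters 1, 3, 8 and 17 in the knock-in only. Across the clusters of a library, the nuclear share went with that of the mitochondrial ribosomal proteins (Pearson r = 0.94 in the wild type and 0.97 in the knock-in). It also went with the share of the tricarboxylic acid cycle enzymes (0.84 and 0.96). With the cytosolic ribosomal proteins r was -0.05 and 0.06, and with the mt- genes it was -0.40 and -0.42. Between complexes, r was 0.96 and 0.98 for I with V, and 0.55 and 0.82 for II with IV. With the median UMIs per cell r was 0.42 and 0.66 (Spearman's rho 0.42 and 0.81), and with genes of G2 and M phase 0.11 and 0.43 (0.31 and 0.61). The part of depth in the nuclear share was not tested. These are descriptions over clusters of the same libraries, whose shares add up to a common total.

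Gene by gene, more members were higher in erythroid-like than in stem and multipotent-like cells than genes at large. A gene was counted when its CPM differed by at least 1.3-fold, among genes with at least 100 UMIs over the 2 classes in that library. In the wild type 55 of the 85 nuclear members with enough UMIs were higher, against a background of 25.8% of all genes, and 1 was lower, Ndufa4 (background 34.6%). In the knock-in 59 of 85 were higher, against 28.4%, and 1 was lower, Cox7a2l (background 33.9%). Of these, 52 members were higher in both libraries. The overlap was not counted over all genes, so it has no background. The median log2 ratio of the nuclear members was 0.44 and 0.54, and that of all genes -0.07 and -0.04. By complex, the count in the wild type was 20 of 36 for complex I, 3 of 4 for complex II, 6 of 8 for complex III, 9 of 13 for complex IV, 11 of 15 for complex V and 5 of 8 for the assembly factors. Of the 13 mt- genes, 0 were higher and 2 were lower in the wild type, with a median of -0.22, and the knock-in had 2 on each side and a median of -0.10.

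Among the members with the largest ratios between these classes were subunits of complexes II, IV and V. Ndufs6 of complex I came close behind those given below, with log2 ratios of 1.10 (wild type) and 1.22 (knock-in). Cox7b of complex IV was at 0.98 and 1.47. Cox6a1, the widely used form of subunit 6A of cytochrome c oxidase, was at 154 CPM (wild type) and 98.6 CPM (knock-in) in stem and multipotent-like cells and at 453 and 370 CPM in erythroid-like cells, log2 ratios of 1.55 and 1.91. Atp5o, the stalk subunit of ATP synthase also called OSCP, was at 173 and 162 CPM in stem and multipotent-like and 419 and 505 CPM in erythroid-like cells (1.27 and 1.64). Sdhd, a membrane anchor of succinate dehydrogenase, was at 111 and 89.9 CPM and at 248 and 234 CPM (1.17 and 1.38). Atp5g1, which encodes the membrane ring subunit c, was at 526 and 527 CPM and at 1152 and 1325 CPM (1.13 and 1.33). The erythroid-like value exceeded the stem and multipotent-like one in both libraries for all of these genes.

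A few members ran the other way. Cox7a2l, just short of 1.3-fold in the wild type, which helps to join complexes III and IV into supercomplexes, was at 288 and 367 CPM in stem and multipotent-like and 222 and 267 CPM in erythroid-like cells (log2 -0.38 and -0.46). The mt- genes of cytochrome c oxidase were also lower: mt-Co1 was at 7445 and 7103 CPM against 5280 and 4379 CPM (-0.50 and -0.70), and mt-Co3 at 10192 and 10667 CPM against 7537 and 7941 CPM (-0.44 and -0.43). In contrast mt-Nd1, a core subunit of complex I, was at 1875 and 1633 CPM in stem and multipotent-like and 2294 and 2232 CPM in erythroid-like cells (0.29 and 0.45). The mt- genes thus did not move as 1 block between these classes. Their counts are also uncertain where nuclear copies of mitochondrial DNA could take reads.

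**Figure D2:**
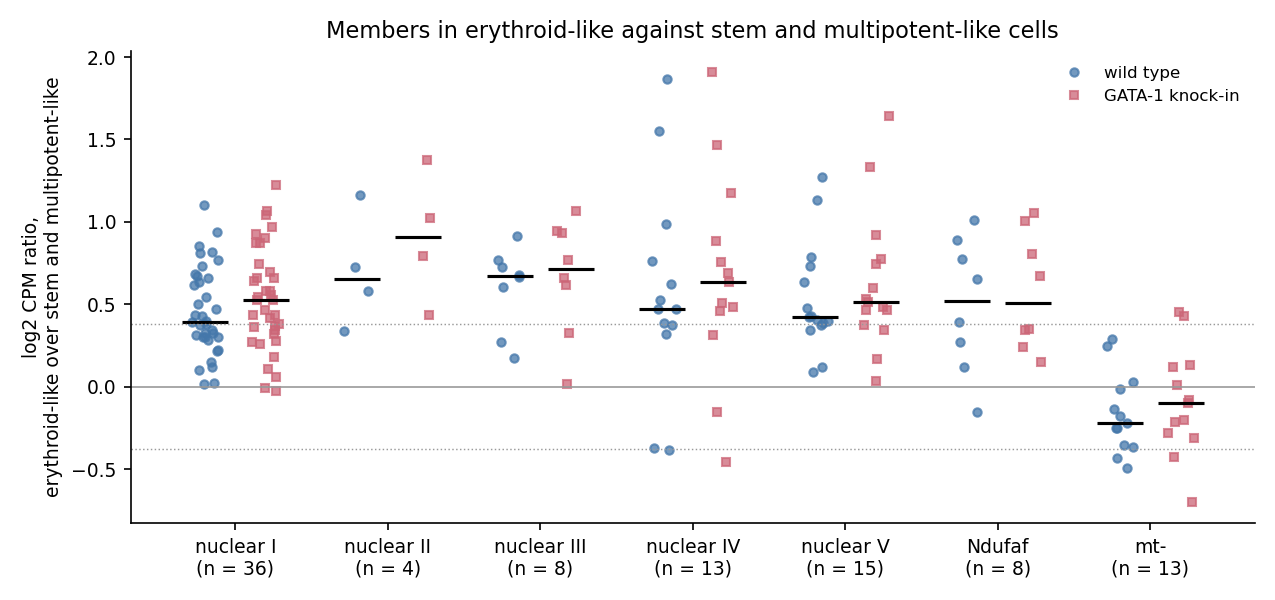
Log2 CPM ratio of erythroid-like over stem and multipotent-like cells for each member with at least 100 UMIs, grouped by nuclear complex, assembly factors and mt- genes. Points are genes, with wild type and knock-in side by side. Nuclear medians lie above 0 in every group, and the mt- median is -0.22 in the wild type and -0.10 in the knock-in.

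The myeloid classes resembled the erythroid-like class in this respect. Against stem and multipotent-like cells, 52 of 85 nuclear members were higher in wild-type myeloid granule-like cells (background 13.4%) and 47 of 83 in the knock-in (17.1%). The counts for monocyte progenitor-like cells were 52 of 86 (12.8%) and 49 of 83 (16%). Megakaryocyte-like cells, the sister lineage of erythroid cells, had 5 of 84 (13.7%) and 8 of 83 (15%), basophil and mast-like cells 4 of 84 (11.3%) and 3 of 83 (13.2%), and lymphoid-primed-like cells 0 of 84 (8.39%) and 1 of 83 (7.38%). Set directly against megakaryocyte-like cells, erythroid-like cells had 42 of 85 nuclear members higher in each library (background 24.6% in the wild type and 25.4% in the knock-in). In both libraries 35 of them were higher, an overlap that was not counted over all genes either. Members at least 1.3-fold lower were few. Against stem and multipotent-like cells they numbered 2 and 1 in myeloid granule-like cells (background 42.7% in the wild type and 33.3% in the knock-in), 3 and 1 in monocyte progenitor-like (38.9% and 32.2%), 2 and 1 in megakaryocyte-like (18.1% and 17.3%) and 1 and 2 in basophil and mast-like cells (19.5% and 16.9%). Lymphoid-primed-like cells had 9 and 4 lower (17.4% and 16.1%), and erythroid-like against megakaryocyte-like cells 0 and 1 (31.2% and 30.5%). The stem and multipotent-like libraries enter several of these counts, which are therefore not independent of each other.

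Other mitochondrial gene lists were counted in the same way, against the same background of 25.8% of all genes higher in the wild type and 28.4% in the knock-in. Of the 77 measured proteins of the mitochondrial ribosome, which translates the mt- messages, 60 were higher in wild-type erythroid-like than in stem and multipotent-like cells and 63 in the knock-in (medians 0.60 and 0.64). For protein import and chaperones the count was 21 of 23 and 20 of 22, and for the tricarboxylic acid cycle 12 and 16 of 19. Cytosolic ribosomal proteins, at 9 and 10 of 80, were below the background share, with medians of 0.04 and -0.03. Of the genes of S phase 8 and 13 of 15 were higher, and of those of G2 and M phase 5 and 12 of 15. The 5 of 15 in the wild type is near the background share. The part of cell cycle stage in the members' values was not tested.

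Cox6b2 stood out among the members by its spread between classes. It encodes an alternative form of subunit 6B of cytochrome c oxidase, best known from testis. The wild-type level was 302 CPM in erythroid-like cells, 124 in basophil and mast-like, 87.6 in megakaryocyte-like, 82.9 in stem and multipotent-like, 57.8 in monocyte progenitor-like, 56.5 in myeloid granule-like and 34.6 in lymphoid-primed-like cells, an 8.73-fold range. The knock-in level was 169 CPM in erythroid-like cells, 107 in basophil and mast-like, 81.4 in myeloid granule-like, 81.1 in megakaryocyte-like, 75.02 in monocyte progenitor-like, 74.8 in stem and multipotent-like and 39.2 in lymphoid-primed-like cells, a 4.30-fold range. Its common partner Cox6b1 varied 1.67-fold in the wild type, from 415 CPM in lymphoid-primed-like to 692 CPM in myeloid granule-like cells, and 1.61-fold in the knock-in. RNA free in the droplets was not estimated, and its part in the lower levels of Cox6b2 was not tested.

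Between the libraries, Cox6b2 was lower in knock-in erythroid-like cells (log2 -0.84, interval -0.89 to -0.79) and higher in knock-in monocyte progenitor-like (0.38, 0.17 to 0.58) and myeloid granule-like cells (0.53, 0.22 to 0.83). Cluster by cluster, it was at 126, 236, 307, 326 and 349 CPM in wild-type erythroid-like clusters 10, 4, 13, 2 and 16, and at 165, 142, 176 and 219 CPM in knock-in clusters 10, 8, 3 and 16. The knock-in was thus lower in cluster 16 and higher in cluster 10, which both libraries share. Cluster 19, also shared, had under 50 cells in each library and was not compared. Over matched clusters the log2 ratio was -0.15, the unweighted mean of the ratios in clusters 10 and 16. These hold a minority of the class, with 117 and 84 wild-type and 265 and 60 knock-in cells. In cluster 10 the knock-in cells also had more Car1, an early erythroid enzyme gene, at 1948 CPM against 548 CPM in the wild type.

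**Figure D3:**
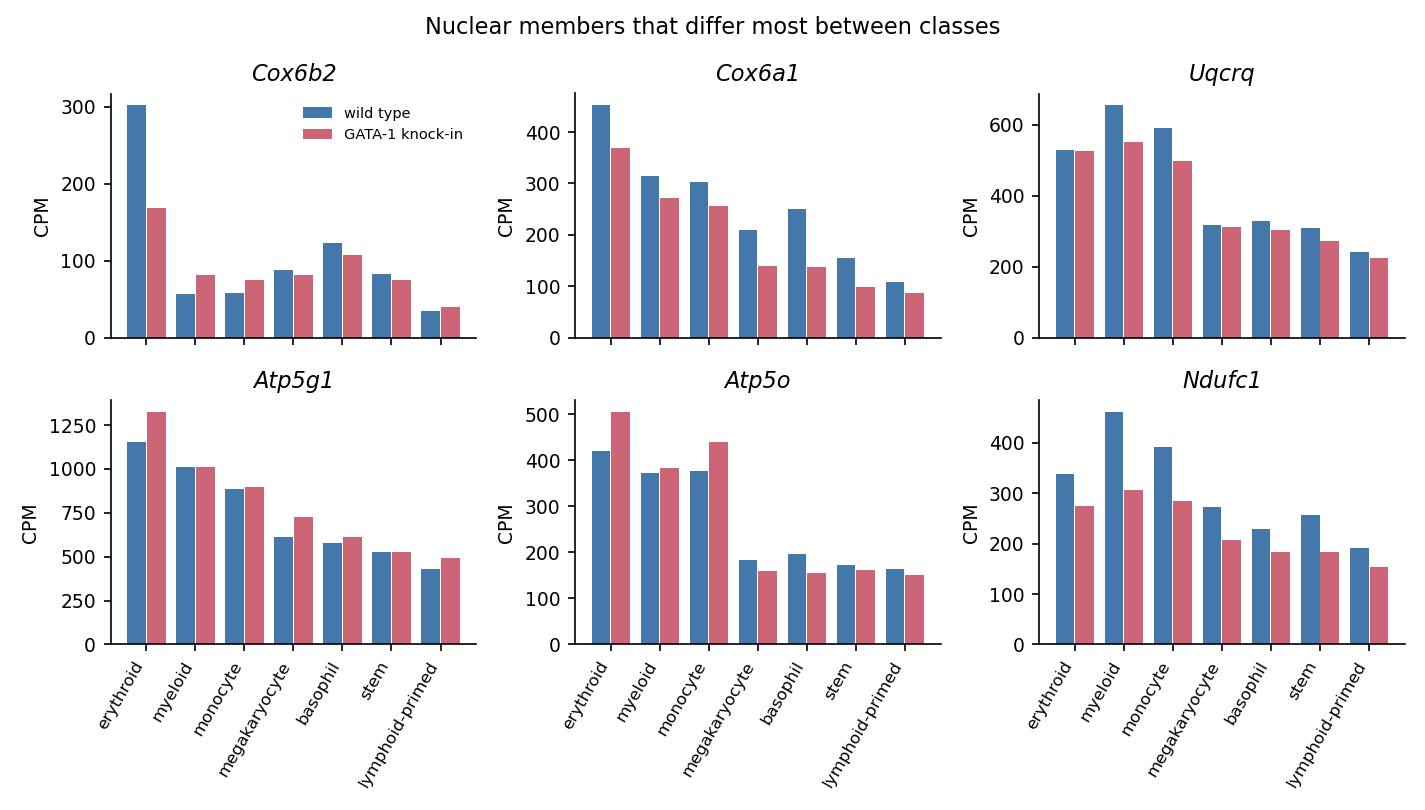
CPM of the 6 nuclear members whose level differed most between classes, by class (horizontal) and library (paired bars, 1 library each, no error bar). Cox6b2 and Cox6a1 peak in erythroid-like cells at 302 and 453 CPM in the wild type, Uqcrq and Ndufc1 in myeloid granule-like cells at 655 and 462 CPM.

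The other members with a wide range followed 2 patterns. Cox6a1 ranged 4.18-fold in the wild type (453 CPM in erythroid-like to 108 CPM in lymphoid-primed-like cells) and 4.31-fold in the knock-in, Atp5g1 2.69-fold and 2.70-fold, and Atp5o 2.55-fold and 3.35-fold, each highest in erythroid-like cells. Uqcrq, a small subunit of complex III, was highest in myeloid granule-like cells at 655 and 551 CPM (ranges 2.72-fold and 2.46-fold). Ndufc1, an accessory subunit of complex I, peaked there too, at 462 and 307 CPM (2.41-fold and 2.00-fold). Lymphoid-primed-like cells were lowest for all 6 of these genes in both libraries.

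Of the alternative subunit forms, most were barely counted. Cox7b2 and Cox8b had 0 UMIs in both libraries, which allows up to 3 UMIs in each, and Cox8c and Ndufa4l2 had at most 2 UMIs in a library. The heart and muscle forms Cox6a2 and Cox7a1 had 102 and 66 UMIs in the wild type and 37 and 23 in the knock-in. Cox6a2 was at 28.5 CPM (33 UMIs) in wild-type and 13.8 CPM (13 UMIs) in knock-in lymphoid-primed-like cells, and at most 4.55 CPM in any other class of either library. Cox4i2, the form of subunit 4 known from lung, was at 8.28 and 8.84 CPM in monocyte progenitor-like cells and at 0.139 and 0.156 CPM in erythroid-like cells, where Cox4i1 was at 1040 and 1219 CPM. The 3 genes for subunit c, which encode the same mature protein, were all well counted in erythroid-like cells, with Atp5g1 at 1152 and 1325 CPM, Atp5g2 at 990 and 1015 CPM and Atp5g3 at 397 and 406 CPM.

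Between genotypes, the summed levels differed little in erythroid-like cells. Nuclear subunits made up 3.46% of wild-type and 3.38% of knock-in UMIs, a log2 ratio of -0.03 (-0.04 to -0.03), and the mt- genes 3.47% and 3.46%. The class is held mainly by clusters 2, 4, 13, 10 and 16 in the wild type and 3, 8, 10 and 16 in the knock-in. The sums of the libraries thus cover unlike mixes of clusters, and cluster 1, mostly knock-in cells, is left out of them. In the shared clusters the nuclear ratio was 0.19 in cluster 10 and -0.07 in cluster 16. The sign of the summed nuclear ratio turned with the treatment of cells: it was 0.046 as a mean over cells and -0.1252 with cluster 1 counted as erythroid-like. In the other 6 classes the nuclear sum was lower in the knock-in. The log2 ratio was -0.16 in myeloid granule-like, -0.14 in monocyte progenitor-like and basophil and mast-like and -0.11 in stem and multipotent-like cells. It was -0.09 in lymphoid-primed-like and -0.05 in megakaryocyte-like cells. Over the alternatives run, the sign was kept in 13 of 14 settings in myeloid granule-like cells (highest value 0.06). It was kept in 15 of 16 in monocyte progenitor-like (0.02) and lymphoid-primed-like cells (0.03), and in 14 of 15 in megakaryocyte-like cells (0.07). Basophil and mast-like cells kept it in 16 of 17 (0.01), and stem and multipotent-like cells in all 17 (-0.003). In the basophil and mast-like class, markers of eosinophils (7 genes, 4 and 2 of them at 5 CPM or more, 2 and 4 at 0) summed to 1846 CPM (wild type) and 77.1 CPM (knock-in), and the 11 markers of the class to 3339 and 1727 CPM. Their part in the differences of this class was not tested.

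By complex, nuclear complex IV was lower in the knock-in in every one of the 7 classes. In erythroid-like cells it was at 0.9496% in the wild type and 0.903% in the knock-in (log2 -0.07), and the largest gap was in myeloid granule-like cells, at 1.04% and 0.891% (-0.23). Without Cox7c and Cox6b2 the other 18 genes of complex IV were at 0.793% and 0.802% in erythroid-like cells (0.02), and were still lower in the other 6 classes (-0.16 to -0.02). Both of these leave-outs were chosen after the values were seen. Complex II, the smallest sum, was at 0.0730% and 0.0789% in erythroid-like cells (0.11, 0.08 to 0.14). Complex I was at 0.937% and 0.944% (0.01), complex III at 0.402% and 0.389% (-0.05) and complex V at 1.10% and 1.07% (-0.04). Among the mt- genes of erythroid-like cells, those of complex I were at 0.742% and 0.703% (-0.08), mt-Cytb at 0.406% and 0.454% (0.16), complex IV at 1.78% and 1.74% (-0.03) and complex V at 0.537% and 0.564% (0.07). As sums, the mt- genes of complex I were lower and those of complex V higher in the knock-in in all 7 classes, but single genes differed: mt-Nd4 was higher in 5 classes and mt-Nd2 in 3, and mt-Atp8 of complex V was lower in erythroid-like cells (-1.07). Without mt-Nd3 and mt-Nd4l, the other 5 genes of complex I were at 0.626% and 0.649% in erythroid-like cells (0.05) and remained lower as a sum in the other 6 classes (-0.11 to -0.02).

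Few single members passed 1.3-fold. In erythroid-like cells 0 of the 85 nuclear members with at least 100 UMIs were higher in the knock-in (background 7.77% of all genes) and 7 were lower (background 8.72%), close to the background. The median ratio of these members was 0.03 and that of all genes 0.02. Over all cells 1 of 87 was higher (12.9%) and 12 were lower (9.16%). The higher and lower counts were 0 and 11 of 84 in stem and multipotent-like cells (8.04% and 8.32%), 2 and 8 of 86 in monocyte progenitor-like cells (11.5% and 8.05%) and 3 and 10 of 83 in myeloid granule-like cells (18.1% and 7.89%). They were 1 and 6 of 82 in megakaryocyte-like cells (8.55% and 8.01%), 0 and 8 of 78 in lymphoid-primed-like cells (10.3% and 9.2%) and 1 and 12 of 77 in basophil and mast-like cells (14.2% and 10.2%). The share of higher members was below the background in every class, and the share of lower members was near the background in erythroid-like, megakaryocyte-like, lymphoid-primed-like and monocyte progenitor-like cells and above it in the others.

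Lower in the knock-in were mainly small subunits. Atp5k, subunit e of ATP synthase, was at 894 CPM (wild type) and 325 CPM (knock-in) in erythroid-like cells (log2 -1.46, -1.49 to -1.43). Ndufa3, an accessory subunit of complex I, was at 326 and 120 CPM (-1.44, -1.50 to -1.38). Cox7c, a small subunit of complex IV, was at 1267 and 848 CPM (-0.58), and Atp5e, the epsilon subunit of ATP synthase, at 1022 and 742 CPM (-0.46). Besides Cox6b2, the remaining genes of the 7 were Ndufaf2, a complex I assembly factor, at 103 and 76.4 CPM (-0.43, and -0.22 within matched clusters, short of 1.3-fold), and Atp5s at 18.9 and 14.4 CPM (-0.39). Reads that overlap Tfpt, next to Ndufa3, or Smim15, at Ndufaf2, may be split between the genes. Atp5k, Ndufa3, Cox7c and Atp5e lay below the wild type in all 7 classes, Atp5k between log2 -1.63 and -1.17 and Ndufa3 between -1.75 and -1.44.

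At the other end the differences were small. Sdhb, the iron-sulfur subunit of succinate dehydrogenase, was at 222 CPM (wild type) and 277 CPM (knock-in) in erythroid-like cells (log2 0.32, 0.27 to 0.36). The other Sdh genes were Sdha, the flavoprotein, at 138 and 147 CPM (0.09), Sdhc at 122 and 131 CPM (0.11) and Sdhd at 248 and 234 CPM (-0.09). Cox7a2l was at 222 and 267 CPM (0.27), Atp5o at 419 and 505 CPM (0.27), Ndufb8 at 301 and 354 CPM (0.23) and Ndufa11 at 217 and 255 CPM (0.23). None of these reached 1.3-fold in this class, but other settings moved some of them. Sdhb was at 0.58 within matched clusters and 0.40 as a mean over cells, and Atp5o at 0.61 and 0.40, past 1.3-fold. Cox7a2l was at 0.38 at Leiden resolution 0.6, also past it, and Sdhd was at 0.23 within matched clusters. The matched values rest on clusters 10 and 16 alone, a minority of the class. The part of erythroid stage in them was not tested. The most abundant nuclear members were near each other in the 2 libraries, with Cox4i1 at 1040 and 1219 CPM (0.23), Cox8a at 1106 and 1125 CPM (0.02), Uqcrh at 702 and 786 CPM (0.16) and Ndufb9 at 473 and 534 CPM (0.18).

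Of the 76 nuclear members with at least 100 UMIs in every class, 19 were lower in the knock-in in all 7 classes (25%) and 10 were higher in all 7 (13.2%). Over the 2503 genes with that many UMIs the shares were 11.0% and 21.3%. All 7 classes come from the same 2 libraries, so agreement across them repeats 1 comparison. Genes on the higher side included Cox7a2l (0.15 to 0.41), Cox4i1 (0.13 to 0.29) and Uqcrh (0.10 to 0.32). The lower side included Cox7c (-0.90 to -0.58), Cox6a1 (-0.87 to -0.21), Atp5e (-0.67 to -0.37), Ndufc1 (-0.59 to -0.30) and Uqcr11 (-0.52 to -0.28). Within matched clusters the erythroid-like ratios of Cox6a1 and Uqcr11 turned to 0.18 and 0.11. These are means of clusters 10 and 16 alone, and in cluster 10 the knock-in cells had more Rhd and Car1. The part of erythroid stage in these ratios was not tested.

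The 13 mt- genes split in the same way. In erythroid-like cells 3 were at least 1.3-fold lower in the knock-in (background 8.72%): mt-Nd3 at 845 and 376 CPM (log2 -1.17, -1.20 to -1.14), mt-Atp8 at 53.8 and 25.7 CPM (-1.07, -1.20 to -0.94) and mt-Nd4l at 310 and 158 CPM (-0.97, -1.03 to -0.92). The same cut took 3 of 13 over all cells (background 9.16%) and in stem and multipotent-like cells (8.32%). mt-Co1 was at 5280 and 4379 CPM (-0.27). On the higher side, mt-Cytb was at 4056 and 4536 CPM (0.16), mt-Nd4 at 2098 and 2279 CPM (0.12), mt-Nd2 at 1616 and 1738 CPM (0.11), mt-Co3 at 7537 and 7941 CPM (0.08) and mt-Atp6 at 5321 and 5618 CPM (0.08). mt-Co2 (5030 and 5118 CPM, 0.03), mt-Nd1 (2294 and 2232 CPM, -0.04), mt-Nd5 (241 and 227 CPM, -0.09) and mt-Nd6 (15.8 and 15.2 CPM, -0.06, -0.24 to 0.13) lay near each other in the 2 libraries. mt-Atp8 overlaps mt-Atp6, mt-Nd4l overlaps mt-Nd4, and mt-Nd6 lies opposite mt-Nd5, so reads in the overlaps are uncertain.

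Most of the lowest ratios are those of short transcripts. The annotated transcripts are 371 bases for Atp5k, 515 for Ndufa3, 540 for Cox7c, 421 for Atp5e, 348 for mt-Nd3, 204 for mt-Atp8 and 297 for mt-Nd4l, the shortest 3 of the mt- genes. Across the 85 nuclear members in erythroid-like cells the log2 ratio and log2 length had r = 0.36, across the 13 mt- genes 0.77, across 80 cytosolic ribosomal protein genes 0.37 and across 9738 other genes 0.05. Over all cells the values were 0.45, 0.74, 0.38 and 0.13. For the mt- genes, where 3 short genes stand apart, Spearman's rho was 0.49 in erythroid-like cells and 0.38 over all cells. Genes outside the members with transcripts under 500 bases had a median log2 ratio of -0.31 over all cells (124 genes, of which 47.6% were at least 1.3-fold lower in the knock-in), against 0.06 for those of 500 to 750 bases (343 genes), the bin that holds Ndufa3 and Cox7c. Length thus moved with the ratio among the members and the cytosolic ribosomal proteins. Among other genes the relation across all lengths was weak over all cells (r = 0.13) and nearly absent in erythroid-like cells (0.05). Few of those genes are under 500 bases, so r says little about the shortest ones. The bin under 500 bases is given here over all cells only. The part of length in the difference between genotypes was not tested. With 1 library each, a difference in library making and 1 of genotype cannot be told apart.

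**Figure D4:**
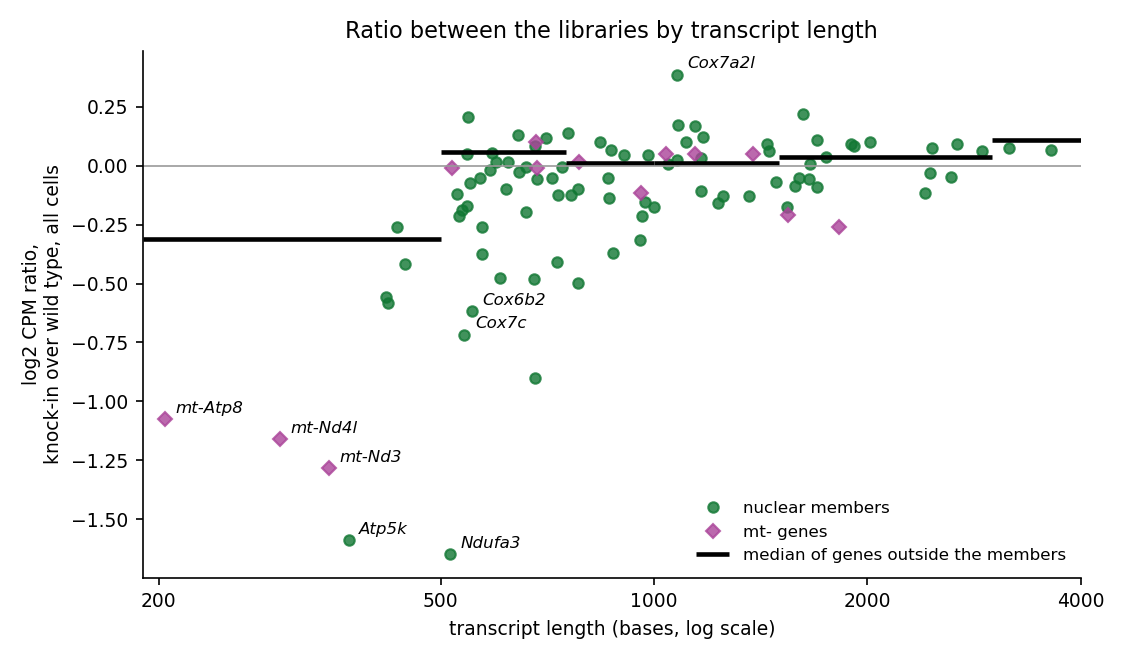
Log2 CPM ratio of knock-in over wild type, all cells, against transcript length in bases (log axis), with 1 point per nuclear or mt- member. Horizontal black lines are medians of genes outside the members by length bin. Atp5k, mt-Nd3, mt-Nd4l and mt-Atp8, all under 500 bases, lie where the median of other genes is -0.31, whereas Ndufa3 (515 bases) and Cox7c (540 bases) lie in the bin of 500 to 750 bases, where it is 0.06.

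Summed by length, nuclear subunits under 500 bases (8 genes) made up 0.359% of wild-type and 0.247% of knock-in erythroid-like UMIs (log2 -0.54), and those of 500 bases or more (76 genes) 3.103% and 3.137% (0.02). For the mt- genes the sums were 0.121% and 0.0559% under 500 bases (3 genes, -1.11) and 3.35% and 3.41% at 500 bases or more (10 genes, 0.03). For the contrast between erythroid-like and stem and multipotent-like cells, 51 of 80 nuclear members of 500 bases or more in the wild type and 55 of 80 in the knock-in were at least 1.3-fold higher, with medians of 0.43 and 0.53. Of the 5 shorter members counted, 4 were higher in each library, with medians of 0.64 and 0.75. The background is 25.8% and 28.4%.

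Other mitochondrial lists were compared between the libraries with the same cut. In erythroid-like cells 0 of 19 tricarboxylic acid cycle genes were past 1.3-fold in either direction, and 0 of 77 mitochondrial ribosomal proteins were higher and 1 lower. Protein import and chaperones had 5 of 23 lower, among them Tomm7 at 624 and 364 CPM (log2 -0.78) and Tomm22 at 263 and 140 CPM (-0.91), both parts of the outer membrane channel. Among 43 assembly factors outside the symbol rule 1 was higher and 3 were lower: Cox17, a copper chaperone, at 221 and 131 CPM (-0.76), Pet100 at 151 and 72.6 CPM (-1.06) and Cox16 at 19.9 and 8.32 CPM (-1.26), all of complex IV assembly. Cytosolic ribosomal proteins, no part of the pathway, had 3 of 80 higher and 11 lower. Each of these is read against the same background of 7.77% higher and 8.72% lower.

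Cells were kept only up to 10% mt- UMIs, which bounds the mt- share and so bears on every mt- level above. The limit removed 700 of 6335 wild-type barcodes (11.0%) and 301 of 6082 knock-in barcodes (4.95%). Barcodes above it were shallow: wild-type barcodes with 20% to 50% mt- UMIs (393) had a median of 1599 UMIs, against 11244.5 for those at 2% to 4% (3582). Their nuclear subunits were also a smaller part of the UMIs that are not mt-, at 2.23% against 3.47% in the wild type and 1.97% against 3.15% in the knock-in. Cytosolic ribosomal proteins were lower there too, at 17.6% against 33.3% of those UMIs in the knock-in. With no limit the erythroid-like mt- ratio was -0.1334 in place of -0.0023, but the cells were clustered again and the class itself changed, from 2354 to 1781 wild-type and from 1835 to 1693 knock-in cells.

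**Figure D5:**
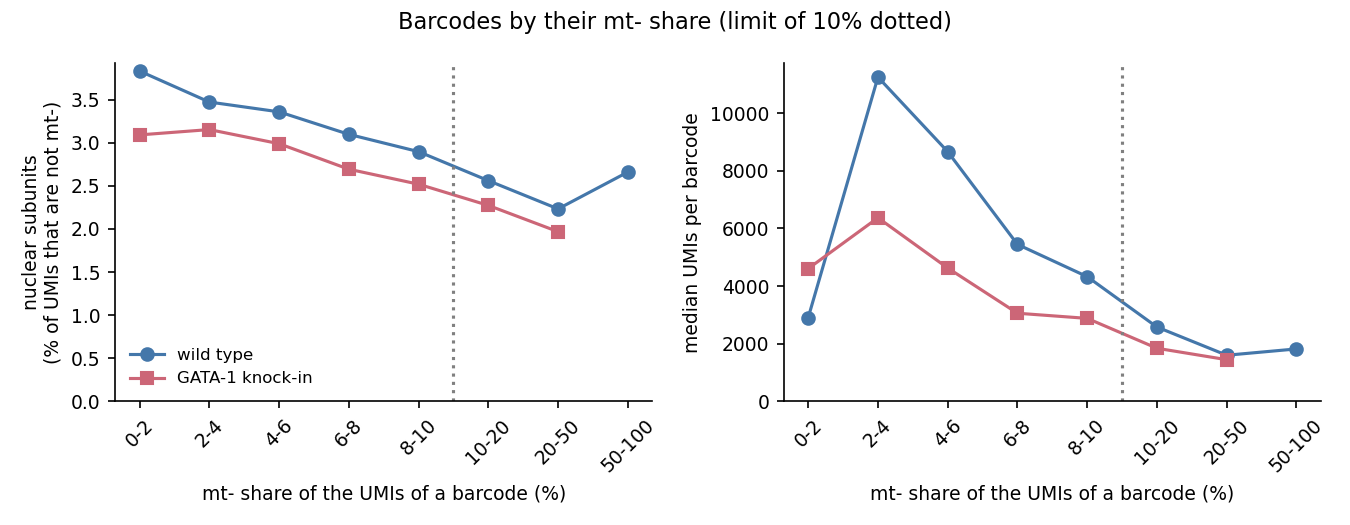
Barcodes grouped by their mt- share (horizontal, percent of UMIs): nuclear subunits as a percentage of UMIs that are not mt- (left) and median UMIs per barcode (right), for each library. The dotted line is the limit of 10%. To its right both values are lower than at 2% to 4% in both libraries. The knock-in has no point at 50% to 100%, a bin with 3 of its barcodes.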

How the data were processed

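For each library the authors deposited a matrix of UMI counts (genes by barcodes), written by Cell Ranger 3.1.0 per the file headers. The build is mm10, per the submitters' processing notes, and the labels name a v2 kit of the 3' reagents. Transcript lengths and positions came from GENCODE M21.

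Barcodes with at least 500 genes, 1000 UMIs and at most 10% mt- UMIs were kept. Scrublet, as in scanpy 1.11.5, removed 145 wild-type doublets (2.57%). Its automatic call marked 0.0692% of knock-in cells, under the minimum of 0.5%, so the top 5% of scores (289 cells) were removed. Both libraries were clustered together from 2000 variable genes (members, pathway lists and ribosomal protein genes left out), 30 principal components, 15 neighbours and Leiden resolution 1. UMIs were summed by class and library and given as CPM or percent. Intervals are exact conditional binomial for ratios and cover counting error only. The ratio and its 1.3-fold call were tried on simulated counts, drawn from the wild-type erythroid-like sums with counting error alone. All 200 genes made 2-fold apart were called, and 0.20% and 0.32% of 8990 unchanged genes were called higher and lower. The simulation held no difference between libraries and no clustering, so these shares are not error rates of the comparison. Named genes follow a rule: all mt- genes, the 6 highest and lowest ratios in erythroid-like cells, the 2 at each end in other classes, the 2 most abundant subunits of each complex, the 6 widest class ranges, alternative subunit forms, the Sdh genes and, from pathway lists, the most abundant and those 1.5-fold apart. The text gives part of them. Members and lists were chosen with earlier results of these data known. Alternatives moved the mt- limit, the cell minimum, doublets, clustering, scaling, fold and transcript length.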

Additional observations from a re-analysis of the deposited data

How the results depend on the processing

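With 1 library per genotype, depth limits only counting error, and no setting gives a replicate check. No paired analysis was possible because each genotype has 1 library and no test was made. The summed nuclear ratio in erythroid-like cells, log2 -0.0324, was -0.0765 at a limit of 5% mt- UMIs, -0.0253 at 20%, -0.069 with no limit, -0.0619 for cells of at least 1000 genes and 2000 UMIs, -0.0962 with all genes allowed as variable genes, -0.1344 at Leiden resolution 0.6, -0.0467 over UMIs that are neither mt- nor ribosomal, -0.0505 centred on the median of all genes, -0.0905 with the knock-in library assigned to clusters of the wild type alone and -0.1252 with cluster 1 added. It was above 0 as a mean over cells (0.046), within matched clusters (0.0587) and without members under 500 bases (0.016) or 1000 bases (0.0957). The mt- ratio of -0.0023 was 0.0023, -0.0118 and -0.1334 at mt- limits of 5%, 20% and none, -0.0079 for the larger cells, -0.0166 and -0.0204 under the 2 scalings, 0.0457 within matched clusters, -0.0063 with cluster 1 added, and 0.0254 and -0.0144 without members under 500 and 1000 bases. The 0 nuclear members higher became 1 at Leiden resolution 0.6, 2 as a mean over cells, 2 with a minimum of 1 UMI and 9 within matched clusters. The 7 lower became 12 at resolution 0.6, 12 with cluster 1 added, 3 at 1.5-fold and 1 without members under 1000 bases, where fewer members were counted. The 55 wild-type and 59 knock-in members higher in erythroid-like than in stem and multipotent-like cells became 34 and 39 at 1.5-fold. Without members under 1000 bases they became 26 and 25, again with fewer members counted. For these class counts matched clusters were not run. Elsewhere the matched clusters are 10 and 16 alone, so those values cover a minority of the erythroid-like class. The share of all genes past the cut was not counted under the alternatives. None of these changed counts therefore has a background of its own, and their size cannot be read against genes at large. Where not stated, the cause was not tested. The alternatives with cluster 1 and with short members left out were chosen after seeing the data. Over the alternatives run, Atp5k lay between -1.60 and -1.25 and mt-Nd3 between -1.30 and -0.97, whereas Cox6b2 ranged from -0.99 to -0.15, Cox6a1 from -0.46 to 0.18, Uqcr11 from -0.43 to 0.11, Sdhb from 0.18 to 0.58, Atp5o from 0.10 to 0.61 and Sdhd from -0.24 to 0.23, each highest within matched clusters. Settings that change the clustering also changed the erythroid-like class, which held 1708 to 2429 wild-type and 1641 to 3181 knock-in cells.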
